A study of Mus musculus with 4 samples.

Results

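Mast cells are tissue-resident granulocytes of the mucosa, skin and other connective tissue, and they are known for their part in allergic reactions. They grow under the Kit receptor, bind IgE through the high-affinity receptor FcεRI, and release stored granules of proteases, histamine and proteoglycan when that receptor is cross-linked. Connective tissue mast cells of the mouse store the proteases encoded by Cpa3, Cma1, Mcpt4 and Tpsb2, and mucosal mast cells are marked by those of Mcpt1 and Mcpt2. The present results concern 10 mast cell genes, chosen by symbol: the proteases Cpa3, Cma1, Mcpt4, Tpsb2 and Tpsab1, the histamine-forming enzyme Hdc, the receptor genes Kit, Ms4a2 and Fcer1a, and the transcription factor Gata2. Probes were assigned to them through the RefSeq accession that each probe targets, which gave 10 of the 39429 probes on the array. Of the 10 genes, 9 had a probe and Tpsab1 had none matched. A ratio on enough arrays to be tested was available for 8 of them, among 25694 genes tested.

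The RNA came from dissected middle ears (temporal bone area) of male BALB/c mice aged 6 to 10 weeks. Each of 4 two-colour arrays carried one extract labelled as the ear of a mouse treated with diesel exhaust particles (DEPs) in the red dye Cy5, and one labelled as a control ear without that treatment in the green dye Cy3. Exposure was by inhalation, for 1 h a day on 5 days, and the tissue was taken on day 14. The study used 9 mice, and neither the number of mice behind an extract nor a sham exposure of the controls is given in the sources used here. No array had the dyes exchanged, so a dye preference of a probe and an effect of exposure cannot be told apart. The Cy5 signal is called the DEP channel below and the Cy3 signal the control channel, from the source names in the labels. Every ratio is that of the DEP channel over the control channel, as a log2 value in which 0 means equal signals and 1 a doubling. This direction is opposite to the study's for most of the genes named in its pathway tables. Of 25 of them listed there as upregulated and tested here, 24 had mean ratios below 0, and of 11 listed as downregulated 9 had mean ratios above 0. Many of the first kind, such as Chrm1, Slitrk1 and Pclo, are genes of the nervous system. Neuron genes in general had low ratios on arrays 1 and 2 (medians of -2.40 and -1.47). Among the 9 listed as downregulated with means above 0 were Foxp3 (1.33) and Wt1 (1.52). The cause of the opposite direction was not tested. If the channels held the extracts the other way round, all the signs below would be turned.

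The arrays were of 1 slide, and between 60.5% and 70.0% of the spots were well above background in a channel. Ratios of the arrays differed in general. Pearson's r across the 31577 probes tested, which do not stand for replicates, ranged from -0.22 for arrays 1 and 4 to 0.61 for arrays 1 and 2. Epithelium was represented, since 8 of 8 genes listed for middle ear and airway epithelium stood well above background in both channels of each of the 4 arrays. The secreted proteins Bpifa1 and Muc5b were among them. Krt5, Cdh1 and Epcam of this list were highest on array 1, as skin epidermis genes were. Whether the signal came from the middle ear was not tested. Markers of brain, skin and muscle were also measured, as were those of erythroid cells and of neutrophils and their precursors. Their values are given beside those of the mast cell genes.

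The granule proteases had higher mean signals in the DEP channel, by amounts that did not pass the test across all genes, and the other mast cell genes were on both sides of 0. All 4 measured proteases had a mean ratio above 0, between 0.36 and 0.53, whereas Hdc, Kit and Gata2 had means below 0 and Fcer1a one above 0. The labels call the arrays biological replicates, and since the mice behind each extract are not given, p-values measure the spread between these arrays alone. No gene of the array passed Benjamini-Hochberg adjustment in limma (0 of 25694 genes, 0.0%, at an adjusted p under 0.05, with 4800 genes at an unadjusted p under 0.05 and 0 adjusted calls in the ordinary test without moderation), so 0 of the 8 mast cell genes did. Their adjusted p values ran from 0.252 for Mcpt4 to 0.990 for Hdc. An unadjusted p under 0.05 was found for 1 of the 8 genes (Mcpt4, which was higher), against 18.7% of all genes in either direction. Among the 18349 genes measured with both dyes on each array, as these 8 were, 6.55% had such a p and were higher. Another 6.07% of them had it and were lower. The ratio was above 0 on all 4 arrays for 3 of the 8 genes (Cpa3, Cma1 and Mcpt4), against 16.2% of all genes, and below 0 on all 4 arrays for 0, against 10.9%. By mean ratio 5 of 8 were higher, against 54.2% of all genes, which is a share close to that background. The median over the 8 genes was 0.27, and over all genes tested 0.03. Array 4 carried much of the former, which was 0.091 without it, and 0.12 with normexp and loess.

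**Figure D1:**
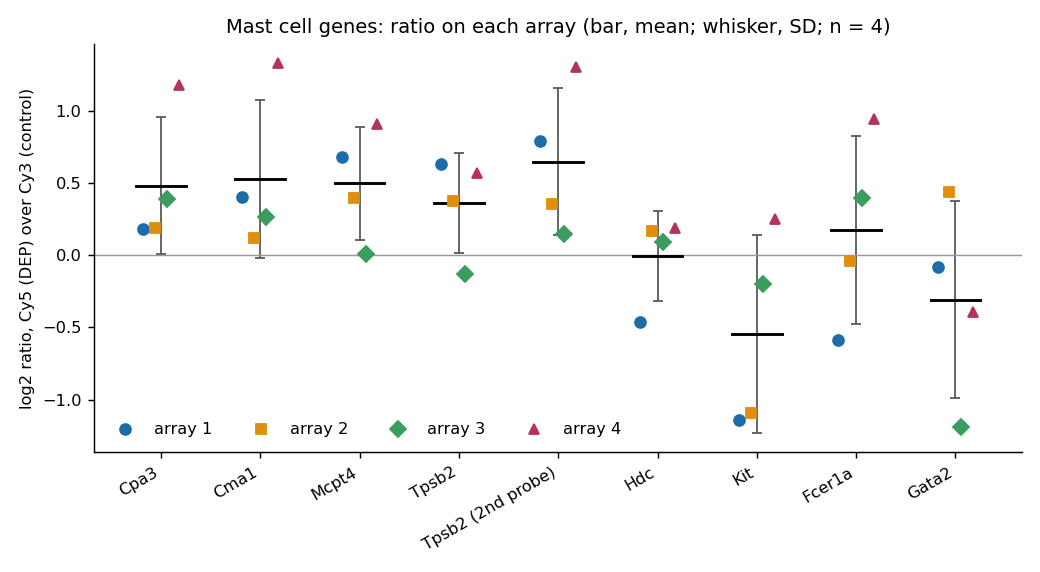
Log2 ratio of the DEP channel (Cy5) over the control channel (Cy3) for the 9 mast cell probes tested, with a coloured point for each of 4 arrays, a bar for the mean and a whisker for the SD. Array 4 has the highest ratio of Cpa3 (1.18), Cma1 (1.33) and Mcpt4 (0.91), and Kit lies near -1.1 on arrays 1 and 2 but at 0.25 on array 4.

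Cpa3 encodes carboxypeptidase A3, a metalloprotease stored in the granules of nearly all mast cells. Its signal in the DEP channel was 1027, 761, 739 and 756 on arrays 1 to 4, and that in the control channel was 908, 669, 566 and 334. The channel labelled DEP was the brighter one on every array, although the 2 sets of values overlapped. Its ratio averaged 0.48 ± 0.47 on the log2 scale (SD, n = 4 arrays; SE, the standard error of the fit, 0.21), which is 1.40-fold, with an adjusted p = 0.30. By array it was 0.18, 0.19, 0.39 and 1.18, so that array 4 stood above the others. Without array 4 the mean was 0.25 (adjusted p = 0.424).

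Cma1 and Mcpt4 encode serine proteases of the chymase family, and both genes lie in the protease cluster of chromosome 14. For Cma1 the signals were 241, 182, 227 and 181 in the DEP channel and 182, 167, 189 and 72.1 in the control channel. Its mean ratio was 0.53 ± 0.55 (SD, n = 4 arrays; SE 0.23), which is 1.44-fold, with an adjusted p = 0.306. As with Cpa3, the ratio was above 0 on 4 of 4 arrays and largest on array 4, at 1.33, and the mean without that array was 0.26 (adjusted p = 0.414). After normexp background correction and loess normalization in place of the deposited ratios, the mean of Cma1 was 0.24.

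Mcpt4 had signals of 2929, 1765, 2130 and 1649 in the DEP channel and of 1832, 1342, 2122 and 878 in the control channel. The channels were nearly equal on array 3, where the ratio was 0.0049, and apart on the other arrays, at 0.68, 0.39 and 0.91 for arrays 1, 2 and 4. The mean was 0.50 ± 0.39 or 1.41-fold (SD, n = 4 arrays; SE 0.18, adjusted p = 0.252, unadjusted p = 0.0399 in limma's fit). The unadjusted p was 0.114 without array 1, 0.0895 without array 2 and 0.13 without array 4, and 0.0183 without array 3. With normexp correction and each array centred on its median, the mean of Mcpt4 was 0.78 with an adjusted p = 0.0406, the only alternative in which a mast cell gene passed the adjustment. In that setting 2988 genes of the array passed, 2784 of them higher, and the median over all genes was 0.12.

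Tpsb2 encodes a tryptase, the trypsin-like serine protease that mast cell granules hold bound to proteoglycan, and it has 2 probes. The brighter one read 784, 483, 514 and 492 in the DEP channel against 506, 373, 562 and 332 in the control channel. It was higher on 3 of 4 arrays and below 0 on array 3 (-0.13), with a mean of 0.36 ± 0.34 or 1.28-fold (SD, n = 4 arrays; SE 0.17, adjusted p = 0.316). The dimmer probe was above 0 on 4 of 4 arrays and gave 0.65 ± 0.51 (SE 0.22, adjusted p = 0.237). The probes differed most on array 4, where they gave 0.57 and 1.30, and the signals of the dimmer one there were 241 in the DEP channel and 98.0 in the control channel. Tpsab1, a second tryptase gene, was without a matched probe. The RefSeq table, made from the C57BL/6J genome, lists it as a transcribed pseudogene, and the mice here were BALB/c. The proteases are members of families with similar sequences, and the probe sequences were not used here, so signal shared between relatives was not tested.

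For the proteases, the arrays differed more in the control channel than in the DEP channel. After scaling between arrays, the log2 signal of Cpa3 was 9.57, 9.52, 9.73 and 9.77 on arrays 1 to 4 in the DEP channel, and 9.39, 9.44, 9.37 and 8.63 in the control channel. The control extract of array 4 was thus the low one for Cpa3, while the DEP extracts lay within 0.26 of one another. The range over the arrays was 0.56 in the DEP channel and 1.37 in the control channel for Cma1, and 0.52 and 1.25 for Mcpt4. A wider range in the control channel was found for 7 of the 9 mast cell probes, and for 58.9% of genes that were measured with both dyes on each array. The lowest control signal was that of array 4 for 6 of the 9 probes, against 23.9% of genes. Total RNA was measured, so fewer mast cells in an extract and less of a transcript in each cell cannot be told apart.

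**Figure D2:**
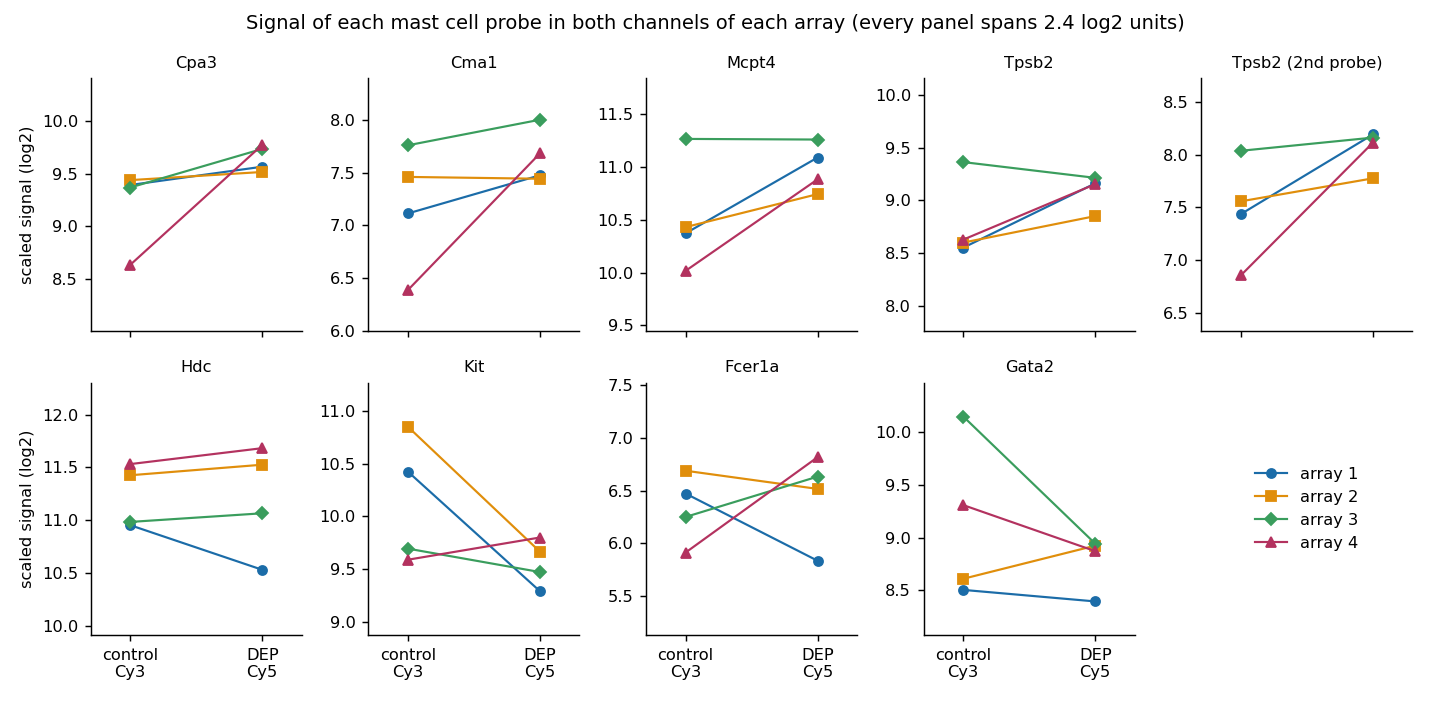
Log2 signal of each mast cell probe after scaling between arrays, with the control channel (Cy3) and the DEP channel (Cy5) of each array joined by a line, and with the same span on every vertical axis. For Cpa3 the DEP channel lies between 9.52 and 9.77 on the 4 arrays while the control channel of array 4, at 8.63, lies below the others.

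The starts of 3 of these protease genes are shown because the genes had ratios above 0 on every array. They are the 250 bases before the start site, on the gene's strand, from the RefSeq promoter table of the GRCm38.p6 build (C57BL/6J), which held 8 of the 10 genes. Capitals mark the letters AGATAA or the letters TGATAA or the same ending in G (AGATAG or else TGATAG), words that GATA factors such as Gata2 are known to bind, read on either strand. The stretches are chr3:20242182-20242431 for Cpa3, chr14:55944676-55944925 for Cma1 and chr14:56062311-56062560 for Mcpt4, all on the minus strand.
Cpa3: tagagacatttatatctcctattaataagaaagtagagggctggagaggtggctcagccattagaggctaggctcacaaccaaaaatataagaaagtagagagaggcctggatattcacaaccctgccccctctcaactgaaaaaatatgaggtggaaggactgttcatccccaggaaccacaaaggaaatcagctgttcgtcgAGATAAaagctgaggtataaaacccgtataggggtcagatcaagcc
Cma1: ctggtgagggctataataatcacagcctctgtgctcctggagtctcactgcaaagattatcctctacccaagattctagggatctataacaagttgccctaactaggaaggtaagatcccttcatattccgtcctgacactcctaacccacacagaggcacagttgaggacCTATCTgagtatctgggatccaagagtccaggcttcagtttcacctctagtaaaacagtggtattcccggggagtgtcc
Mcpt4: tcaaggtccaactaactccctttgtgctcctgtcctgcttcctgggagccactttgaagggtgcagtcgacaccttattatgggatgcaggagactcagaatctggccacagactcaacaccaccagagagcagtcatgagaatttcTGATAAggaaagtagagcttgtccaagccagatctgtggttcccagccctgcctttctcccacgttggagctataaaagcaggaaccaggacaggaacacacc
Each stretch holds 1 such word. In Cpa3 it is AGATAA, which lies 46 to 41 bases before the start. Cma1 has its word on the other strand, printed as CTATCT and lying 79 to 74 bases before the start, and Mcpt4 has TGATAA, which lies 103 to 98 bases before the start. The same windows of Hdc and Fcer1a hold 1 word each and that of Ms4a2 holds 3, while those of Kit and Gata2 hold 0. In all 6 of the 8 genes hold a word. Counted by promoter, with 2 each for Kit and Gata2, 6 of 10 hold one, and 26.5% of the 32851 promoters in the table do. The TATA box letters TATAAA on the gene's strand, which lie within 32 bases of the start of Cpa3 and Mcpt4 and further up in Fcer1a, are held by 7.59% of all promoters. These matches describe letters only, and no binding was measured.

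Hdc encodes histidine decarboxylase, which forms histamine in mast cells, basophils and some neurons and gastric cells. Its signals were 1985, 2986, 1857 and 2877 in the DEP channel and 2738, 2664, 1740 and 2523 in the control channel. The channels were close on arrays 2 to 4, with ratios of 0.16, 0.09 and 0.19, and the ratio of array 1 was -0.46. The mean of -0.0041 ± 0.31 (SD, n = 4 arrays; SE 0.15, adjusted p = 0.990) was smaller than the spread between arrays, and its sign turned without array 1 (0.15) and with normexp and median centring (0.36).

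Of the IgE receptor FcεRI, the chains in the chosen set were dim or at background. Fcer1a, which encodes the α chain that binds IgE, had signals of 76.2, 95.3, 87.3 and 101 in the DEP channel and of 115, 98.1, 66.4 and 52.5 in the control channel. The ratio was -0.59, -0.04, 0.39 and 0.94 on arrays 1 to 4, above 0 on 2 of them. Its mean was 0.18 ± 0.65 (SD, n = 4 arrays; SE 0.27, adjusted p = 0.740), and it was below 0 without array 4 (-0.079) and after normexp correction with either normalization (-0.0071 with loess and -0.026 with median centring). Ms4a2, which encodes the signal-amplifying β chain, stayed at background (not well above it) in each channel of every array and had a ratio on 2 arrays alone, so that no fold can be given. The γ chain is shared with other immune receptors and is encoded by Fcer1g, with signals of 12681, 14702, 10465 and 13721 in the DEP channel and 15515, 11898, 5461.9 and 7844.5 in the control channel. Its mean ratio was 0.44 ± 0.56 (SE 0.24, adjusted p = 0.372).

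Kit encodes the receptor for stem cell factor, on which mast cells depend, and it is also expressed by melanocytes, blood progenitors and interneurons of the cerebellum. Its signals were 846, 836, 616 and 772 in the DEP channel and 1868, 1785, 709 and 649 in the control channel. The control extracts of arrays 1 and 2 were the high ones, and those of arrays 3 and 4 lay within the range of the DEP extracts or close to it. The ratio was -1.14, -1.09, -0.20 and 0.25, with a mean of -0.55 ± 0.69 (SD, n = 4 arrays; SE 0.28, adjusted p = 0.358). It ranged from -0.81 without array 4 to -0.35 without array 1, and was -0.31 with normexp and median centring.

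Genes of the brain were low on the arrays on which Kit was low. Over the 3 cerebellum genes measured with both dyes on each array (Pcp2, Itpr1 and Cbln1) the median ratio was -2.55, -3.16, -0.33 and 0.22 on arrays 1 to 4, and over 6 neuron genes it was -2.40, -1.47, -0.49 and 0.33. The sum of the scaled signals of the neuron genes ran from 11385 to 27617 in the DEP channel and from 20924 to 44569 in the control channel. The summed scaled signal of the cerebellum genes lay between 4069.5 and 8664.6 in the DEP channel and between 4319.4 and 54827 in the control channel. For 7 melanocyte genes the medians were -0.38, 0.53, -0.19 and -0.17, and for 4 genes of blood stem and progenitor cells they were -0.24, 0.38, 0.15 and -0.07. The medians of 5 astrocyte genes were -2.36, -0.66, -0.05 and 0.28. Kit, the neuron list and the astrocyte list were all lowest on array 1 and highest on array 4, and the cerebellum list was lowest on array 2 and highest on array 4. The part of brain RNA in the ratio of Kit was not tested.

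Gata2 encodes a transcription factor of mast cells, blood progenitors, endothelium and some neurons. Its signals were 453, 507, 427 and 404 in the DEP channel and 479, 375, 973 and 531 in the control channel, of which the control extract of array 3 was the high one. The ratio was -0.08, 0.44, -1.19 and -0.40 on arrays 1 to 4, and the mean was -0.31 ± 0.68 (SD, n = 4 arrays; SE 0.28, adjusted p = 0.578). Without array 3 the mean was -0.014, and with normexp and median centring it was -0.072.

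Slc18a2, the vesicle transporter that loads histamine and other amines into granules of mast cells and into vesicles of amine neurons, stood apart on the same array. Its signals were 209, 182, 155 and 163 in the DEP channel and 282, 143, 1895 and 142 in the control channel. The mean ratio was -0.87 ± 1.86 (SD, n = 4 arrays; SE 0.73, adjusted p = 0.544), and it was 0.04 without array 3. Genes of sympathetic neurons, a list added after these values were seen and so chosen with them in view, were high in that control extract too. Th, which encodes the first enzyme of catecholamine synthesis, read 1566, 737, 21460 and 481 in the control channel and 712, 671, 1914 and 469 in the DEP channel. Dbh, the enzyme that forms noradrenaline, was well above background on array 3 alone, at 28468 in the control channel and 2925 in the DEP channel. Over the 4 genes of that list measured with both dyes on each array (Th, Ddc, Slc6a2 and Phox2a) the median ratio was -0.82, 0.0023, -3.70 and 0.17 on arrays 1 to 4, and their summed scaled signal ran from 1009.8 to 4463 in the DEP channel and from 1019 to 56001 in the control channel. The part of such neurons in the values of Gata2 and Slc18a2 was not tested.

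**Figure D3:**
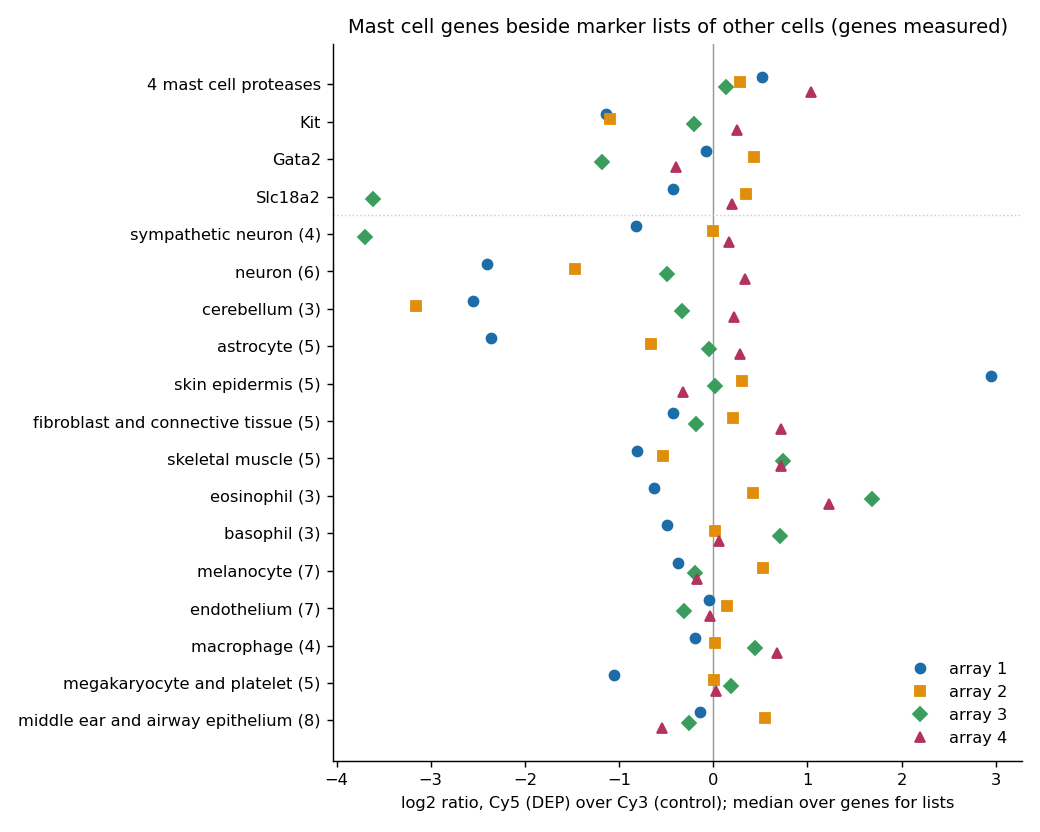
Log2 ratio (Cy5 over Cy3) on each of 4 arrays for the mast cell proteases (median of 4 genes), Kit, Gata2 and Slc18a2, above the median ratio of marker lists of other cells, with the number of genes measured in brackets. Kit is low on arrays 1 and 2 as are the neuron and cerebellum lists. Gata2 and Slc18a2 are lowest on array 3 (-1.19 and -3.61), as is the sympathetic neuron list (-3.70). That last list was added after these values were seen.

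The other marker lists are given beside the proteases, whose median over 4 genes was 0.52, 0.28, 0.13 and 1.04 on arrays 1 to 4. Fibroblast and connective tissue genes, from the tissue in which such mast cells lie, had medians of -0.43, 0.21, -0.18 and 0.72. Their summed scaled signal overlapped between channels. This list was highest on array 4 as the proteases were, but below 0 on array 1. The macrophage, neuron, cerebellum and astrocyte lists were highest on array 4 too. The 8 genes of middle ear and airway epithelium had medians of -0.14, 0.55, -0.26 and -0.54, lowest on array 4 where the proteases were highest. By mean ratio 4 of them were above 0 and 4 below. Muc5b, a mucin, was below 0 on 4 of 4 arrays at -1.41 ± 0.85 (SE 0.34, adjusted p = 0.167). Epcam went the other way by mean, at 0.47 ± 0.86 (adjusted p = 0.495). Skin epidermis genes had medians of 2.95, 0.31, 0.02 and -0.32, and skeletal muscle genes of -0.81, -0.54, 0.74 and 0.72. Neither order was that of the proteases. Basophils share Hdc, Fcer1a and Gata2 with mast cells, and of 5 basophil genes 3 were measured, with medians of -0.50, 0.01, 0.71 and 0.06. Mcpt8, the protease of mouse basophils, had a mean of 0.24 ± 0.60 (SD, n = 4 arrays; SE 0.25, adjusted p = 0.618), and 0.0062 without array 3 or 0.49 without array 1. Eosinophil genes, of which 3 of 5 were measured, had medians of -0.63, 0.42, 1.69 and 1.23, with Prg2, a major granule protein, at 1.23 ± 1.83 (SE 0.72, adjusted p = 0.40), and 0.56 without array 3 or 1.94 without array 1. Macrophage genes had medians of -0.20, 0.01, 0.44 and 0.68 over 4 genes, and those of megakaryocytes and platelets -1.05, 0.0042, 0.19 and 0.03 over 5. For endothelium, which also uses Gata2, the medians of 7 genes were -0.05, 0.14, -0.31 and -0.03. One of its genes, Cldn5 of the tight junctions, was below 0 on 4 of 4 arrays at -0.90 ± 0.12 (SE 0.11, adjusted p = 0.104). Erythroid genes (medians -0.78, 0.48, 0.55 and 0.26 over 5 genes) and neutrophil and precursor genes (-1.13, -0.03, 0.51 and 0.17 over 8) were lowest on array 1. None of these lists was tested against the proteases.

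Beyond the chosen genes, 9 lists of mast cell pathways hold 77 genes, of which 58 were measured with both dyes on each of 4 arrays. Of the 58 genes, 37 had a mean ratio above 0 and 21 below 0, and 0 passed adjustment. A ratio above 0 on all arrays was found for 7 of them and one below 0 on all arrays for 5, against 15.4% and 10.7% of the 18349 genes measured in the same way. At an unadjusted p under 0.05, 4 were higher and 3 lower, against 6.55% and 6.07% of those genes, and 54.4% of them had a mean above 0. The counts of called pathway genes are close to what these shares give, and the median mean ratio over the 18349 genes was 0.03. Of the 24 pathway genes named here, 6 moved by less than 1.5 times when any 1 array was left out (Cbl, Hrh3, Il1rl1, Kitl, Mitf and Vamp8), 13 moved by more, and 5 changed sign (Alox5ap, Ctsg, Ptgs1, Slc18a2 and Tal1).

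Among proteases outside the chosen set, Cma2 (a chymase of the same cluster) had 0.39 ± 0.36 (SD, n = 4 arrays; SE 0.17, adjusted p = 0.305), above 0 on 3 of 4 arrays and highest on array 4 (0.82). Ctsg (cathepsin G, which neutrophils also store) had 0.13 ± 0.56 (SE 0.24, adjusted p = 0.784), and it turned to -0.075 without array 3. Of the other 5 proteases of that list, Mcpt1, Mcpt2 and Mcpt9 were not well above background with either dye. Proteases of mucosal mast cells were thus not detectable with these probes, while Cma1, Mcpt4 and Tpsb2 were measured on every array.

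Of 11 genes for granule storage and secretion, 8 were above 0 by mean and 3 below, with a median of 0.04. Vamp8, a vesicle protein needed for granule release, was above 0 on 4 of 4 arrays at 0.45 ± 0.25 (SD, n = 4 arrays; SE 0.14, adjusted p = 0.214), and Lyst, which sets granule size, had -0.31 ± 0.75 (adjusted p = 0.607). Of 7 enzymes that form lipid mediators 5 were measured, of which 4 were above 0 by mean and 1 below, with a median of 0.08. Among them Alox5, the first enzyme of leukotriene synthesis, had 0.34 ± 0.44 (adjusted p = 0.397), and its partner Alox5ap had 0.12 ± 0.50 (adjusted p = 0.776). Ptgs1, a cyclooxygenase, had 0.08 ± 0.29 (adjusted p = 0.782).

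The histamine receptors and histamine-degrading enzymes had a median of 0.0040 over 5 measured genes. Hrh3, the receptor of that group found mainly in neurons, was below 0 on 4 of 4 arrays at -1.28 ± 0.92 (SD, n = 4 arrays; SE 0.37, adjusted p = 0.199), and it was lowest on arrays 1 and 2 (-1.84 and -2.18), where the neuron list was also low. Hrh4, the receptor of blood cells, had 0.12 ± 0.22 (adjusted p = 0.642). Aoc1, diamine oxidase, had 0.23 ± 0.48 (adjusted p = 0.584).

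Signalling below FcεRI gave 10 measured genes above 0 by mean and 3 below, with a median of 0.04. The kinase gene Btk was below 0 on 4 of 4 arrays at -0.53 ± 0.40 (SD, n = 4 arrays; SE 0.18, adjusted p = 0.242), and Fyn, a kinase of mast cells and of neurons, had -0.59 ± 0.65 (adjusted p = 0.319). Of 8 genes of Kit ligand and Kit signalling, 2 were above 0 by mean and 6 below, with a median of -0.09. Among them Kitl, the ligand of Kit, was below 0 on 4 of 4 arrays, as Btk was. Its signals were 182, 147, 134 and 135 in the DEP channel and 267, 172, 207 and 170 in the control channel, and its mean was -0.44 ± 0.18 (SE 0.12, adjusted p = 0.191). Cbl, a ubiquitin ligase that acts on activated Kit, had 0.39 ± 0.15 (SE 0.11, adjusted p = 0.199), above 0 on 4 of 4 arrays, and Pik3r1 had -0.24 ± 0.33 (adjusted p = 0.456).

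Mitf, the transcription factor of mast cells, melanocytes and osteoclasts that drives protease genes, had the smallest spread among the named pathway genes. Its signals were 2267, 1848, 1719 and 1598 in the DEP channel and 1782, 1195, 1159 and 1076 in the control channel, and its mean ratio of 0.53 ± 0.12 (SD, n = 4 arrays; SE 0.11, adjusted p = 0.144) was above 0 on 4 of 4 arrays. Runx1 and Tal1, factors of blood cells in general, had -0.40 ± 0.62 (adjusted p = 0.448) and -0.19 ± 0.49 (adjusted p = 0.649). Among receptors, Il1rl1, through which mast cells sense interleukin 33, was above 0 on 4 of 4 arrays at 0.55 ± 0.35 (SE 0.17, adjusted p = 0.211). Il33 itself, an alarm cytokine of epithelium and stroma, had 0.73 ± 0.88 (SE 0.35, adjusted p = 0.335) and was highest on array 1 (1.85), where skin epidermis genes were highest. The receptor genes C3ar1 and Il3ra had 0.25 ± 0.35 (adjusted p = 0.45) and -0.26 ± 0.23 (adjusted p = 0.35), and Il33 was the one gene measured of 6 growth and alarm cytokines.

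**Figure D4:**
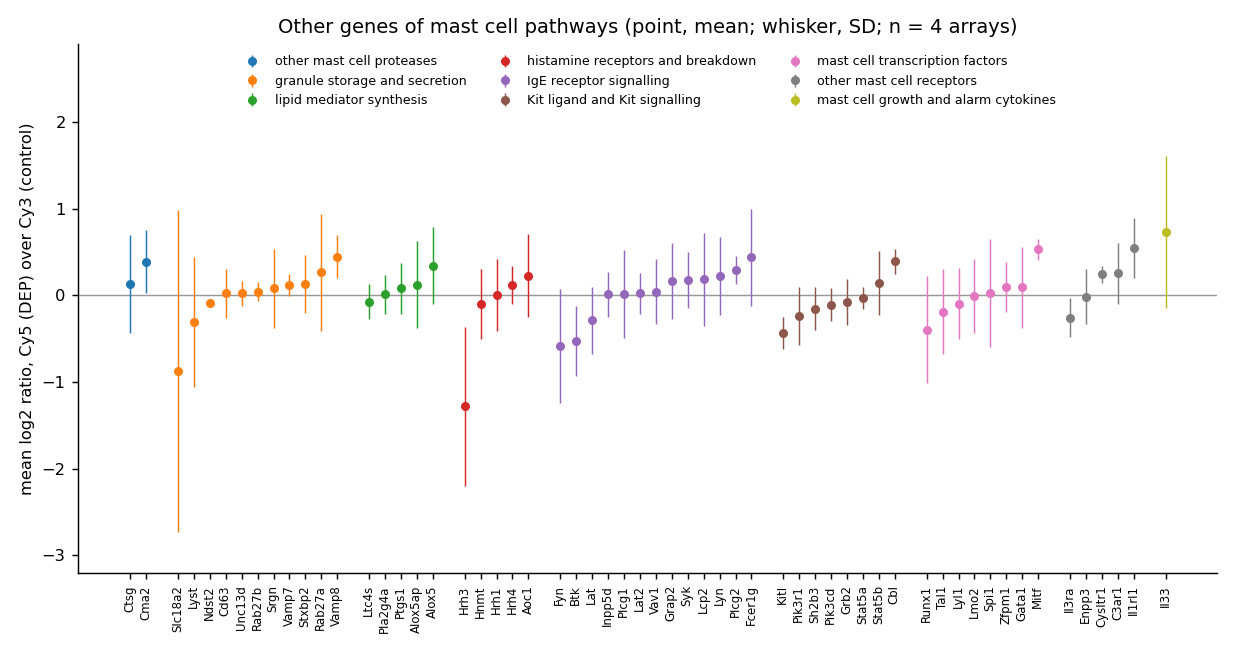
Mean log2 ratio (Cy5 over Cy3) of the 58 pathway genes measured with both dyes on each of 4 arrays, grouped by list, with the SD over arrays as the whisker. Most whiskers cross 0, Mitf (0.53 ± 0.12) and Kitl (-0.44 ± 0.18) are among those that do not, and Slc18a2 has the widest (SD 1.86).

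Likeness to Cpa3 was measured as the root mean square difference of the 4 ratios, over 18341 genes that both channels of each array had measured. Among the mast cell genes Cma1 was nearest, at 0.15, with 4 genes of the array nearer. The value was 0.36 for Mcpt4 (289 genes nearer), 0.42 for Fcer1a (742), 0.47 for Tpsb2 (1470), 0.61 for Hdc (5639), 1.07 for Kit (15789) and 1.13 for Gata2 (16105). Cma1 followed Cpa3 closely on these arrays, and Kit and Gata2 lay further from it than most genes. Outside the chosen set the 5 nearest were Ptgfr (0.080), a probe without a gene name (A_55_P2185536, 0.12), Creb3l3 (0.14), Nnmt (0.15) and Ube2d1 (0.16). With 4 arrays such a match describes these arrays alone.

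**Figure D5:**
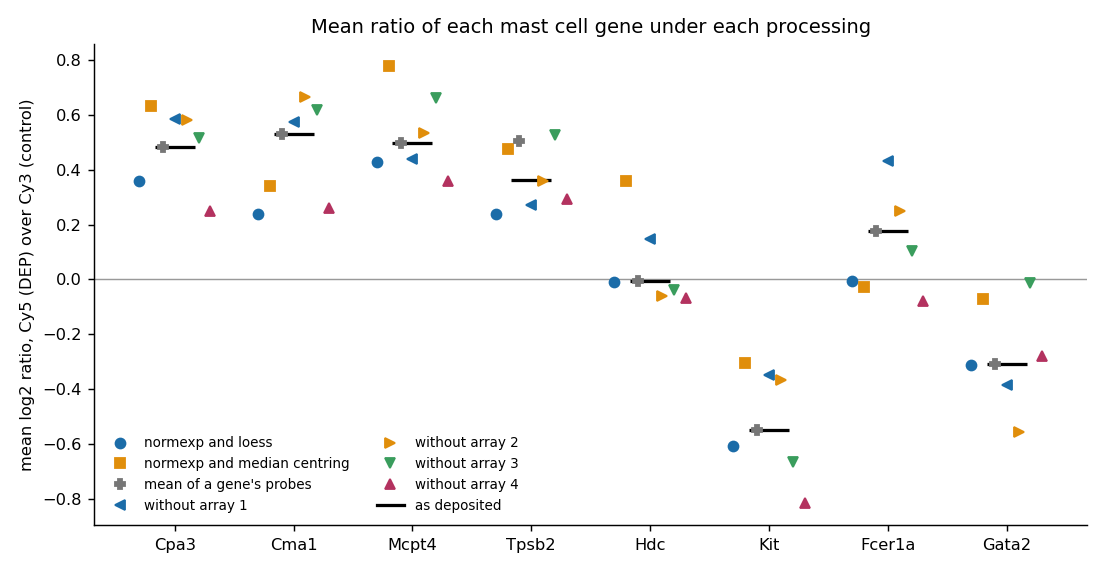
Mean log2 ratio (Cy5 over Cy3) of the 8 mast cell genes tested, as deposited (black bar), under other background correction and normalization, with the mean of a gene's probes, and without each array in turn. The 4 proteases stay above 0 and Kit and Gata2 below 0 in each setting drawn, while Hdc and Fcer1a lie on either side of 0.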

How the data were processed

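Expression was measured on 4 two-colour 4x44K arrays, and the channels were assigned by their source names, since the labels list both treatments under Cy5. Spot quantification by the authors used Feature Extraction 10.10.1.1, and the deposited intensity of each channel had been background-subtracted and dye-normalized. Ratios were deposited as the log10 ratio of Cy5 over Cy3, and were converted to log2 here. The authors' ratio table holds the same log10 values, rounded. Of the columns of values, 0 lacked a sample.

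Control spots, outlier-flagged spots (164 to 274 per array) and spots without a ratio (6179 to 8558 of 43020) were not used, and probes with ratios on fewer than 3 arrays were dropped. Accessions were matched to the RefSeq table of GRCm38.p6 for names alone, which named 27655 of 39429 probes. For a gene with several probes the brightest was taken. Ratios were tested against 0 with limma 3.58.1 in R 4.3.3 (lmFit, eBayes, two-sided), with adjustment over all 31577 probes. An exact sign-flip test of 4 ratios cannot give a p under 0.125. The fit was tested on simulated data. The number of arrays limits the precision. Signals compared between arrays were normalized by loess within and A-quantile between arrays. Python 3.11.15 with pandas 2.3.3 and matplotlib 3.10.9 was used for the summaries and plots.

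The mast cell genes, lists and tests were chosen with earlier results of these data known. Genes named beyond the 10 were, in each list, up to 3 with the largest absolute mean ratio among those measured in both channels on all arrays, and the 5 nearest to Cpa3. The pathway-table genes of the study served to check direction alone. Genes of sympathetic neurons, and Dbh among them, were added after seeing the values, and so were Bpifa1, Mcpt1, Mcpt2 and Mcpt9, which are named for presence alone. The alternatives were other background correction (normexp on the median spot signals) and normalization, the ratio table, filters on dim probes, flagged spots kept, other variance models, the mean of a gene's probes, and each array left out.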

Additional observations from a re-analysis of the deposited data

Results flagged for a closer look

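Among 88 sets of 4 ratios examined, 7 had a value that stood apart by Dixon's test at the 95% level, which chance alone gives in about 1 of 20. The figure given for each is the gap to the nearest array divided by the whole range. Hdc was such a case at 0.854, through array 1 (-0.46). Array 1 also stood apart for the platelet genes Ppbp (0.871) and Gp9 (0.939) and for the skin genes Krt10 (0.87) and Lor (0.863). Adgre1 of macrophages stood apart through array 2 (0.846), and Ptgfr, the gene nearest to Cpa3, through array 4 (0.863). Ptgfr was chosen for ratios like those of Cpa3, which was also highest on array 4. The share of 1 of 20 does not hold for a gene chosen in that way. In Hdc the ratio of array 1 was below those of the other arrays, and in Krt10 (2.67) and Lor (3.04) it was above them. The causes were not tested.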

How the results depend on the processing

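The deposited ratios gave 0 adjusted calls on the array, and 2988 were made with normexp and median centring. Unadjusted calls numbered 4800, but 9535 with that centring and 2840 with both channels required to be well above background. The share of them that were higher was 53.6%, and it ran from 45.7% with normexp and loess to 76.1% with median centring. With 1 array left out the count ran from 2864 (without replicate 2) to 4804, and it was 2963 without replicate 3. Of the mast cell genes 1 had an unadjusted p under 0.05, against 4 with median centring, 2 with the mean of a gene's probes, 0 without moderation, and 0 to 2 with 1 array left out (0 without replicate 1 or 2, 2 without replicate 3, and 1 without replicate 4, which was Kit and not Mcpt4). The ratio table, the kept flagged spots, the filters on dim probes and the other variance models reused the same ratios. Their means equalled the main ones or nearly so, and a sign could hardly change there. The mean of a gene's probes changed that of Tpsb2 alone. With these settings counted, 98 of 104 mean ratios of the 8 genes under 13 alternatives kept their sign and side of the threshold. Of the rest, 1 passed it (Mcpt4) and 5 changed sign. Those were Fcer1a, at -0.00713 after normexp and loess, at -0.0256 under median centring and at -0.0789 without replicate 4, and Hdc, at 0.359 under median centring and 0.149 without replicate 1. With 1 array left out their means ran from -0.0789 to 0.43 and from -0.0686 to 0.149. The cause was not tested. The median over the 8 genes was between 0.0906 (without replicate 4) and 0.351 (without replicate 1) in all 13. No paired analysis was possible because none is left beyond the test used, which is itself paired within each array and whose 4 ratios form 1 group.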
